A study of Macaca mulatta with 8 samples.

Results

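LDLRAD4, FGF14 and CARD9 are 3 of the 26533 features counted in 8 single-cell libraries of macaque retina. They were picked by gene symbol because earlier results of these data had placed them among the genes that were higher in rods of the AAV8-GRK1-mScarlet blebs than in rods of uninjected retina of the same animal. That contrast is therefore given as a description, with calls named only to say how the genes were drawn and where that call was lost, and the tests below concern other contrasts. Most of them reuse libraries of the contrast that chose the genes, among them the 2 NHP2 uninjected libraries in which the genes were picked as low, so they are not independent of that choice.

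The libraries came from 2 male rhesus macaques (Macaca mulatta), and each group of samples holds 1 library from the right eye and 1 from the left eye of 1 animal. NHP1, aged 5 years, gave 2 libraries labelled uninjected, from eyes that had received AAV2-CAG-hRPE65, a vector with a ubiquitous promoter. From each eye of NHP2, aged 6 years, came 3 libraries: retina left uninjected, a bleb treated with AAV8-GRK1-hRPGR, and another treated with AAV8-GRK1-mScarlet. GRK1 is a photoreceptor promoter, hRPGR a human RPGR sequence and mScarlet a red fluorescent protein, and a bleb is where fluid injected under the retina has raised it. Every eye was given triamcinolone, and adalimumab, an antibody to TNF, was added in left eyes. Since no group has a second animal, spread between libraries is spread between eyes, and p-values do not reach beyond these animals.

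Libraries held 90634306 to 146519011 UMIs (unique molecular identifiers, 1 per captured RNA molecule), and 83192 cells were kept after removal of a doublet share. Rod-like cells, named from rod markers, numbered 3673 to 6851 per library, with median depths of 4224 to 7310 UMIs, and all 11 rod markers found in the files were present in every library. Some libraries held UMIs of a transgene that their labels do not name. After thinning to 3000 UMIs per cell, 14.96% (exact 95% interval 14.0 to 15.9) of rod-like cells in the right uninjected library of NHP2 held a coRPGR UMI, the feature that counts hRPGR, against 0 of 3610 cells in the left one, which allows a share of up to 0.102%. The left NHP1 library held a huRPE65 UMI, which counts hRPE65, in 34.1% of its rod-like cells, and the right one in 1 of 5288. The right mScarlet bleb held a coRPGR UMI in 3.16%. Free RNA held coRPGR at 299.8 CPM in the right uninjected library, against 184 CPM in its rod-like cells. In the right mScarlet bleb it was 27.0 against 25.5 CPM, so levels alone do not tell these coRPGR shares apart from free RNA. The 6263 rod-like cells of the right uninjected library held 6777 coRPGR UMIs, while 14.96% of thinned cells held any. These UMIs were thus spread unevenly over cells, and their source was not tested. In the left NHP1 library huRPE65 stood at 452 CPM in free RNA and 615 CPM in rod-like cells. Because labels and transgene UMIs differ, the uninjected libraries are given one by one.

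LDLRAD4 encodes a membrane protein that binds SMAD proteins and dampens TGF-beta signalling, and it carries motifs for ubiquitin ligases of the NEDD4 family. FGF14 belongs to the intracellular fibroblast growth factor homologous factors, which are not secreted but bind voltage-gated sodium channels and help to place them at the axon initial segment of neurons. CARD9 is an adaptor best known from myeloid cells, where it links C-type lectin receptors, through SYK, BCL10 and MALT1, to NF-kB. Rods, the photoreceptors of dim light, are not the cells for which any of these genes is best known.

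The 3 genes differ widely in size and place. In the RefSeq annotation of Mmul_10, LDLRAD4 (ENSMMUG00000004032) spans 443 kb of chromosome 18, from 73840243 to 74282755 on the plus strand, with 10 annotated starts. FGF14 (ENSMMUG00000002875) spans 676 kb of chromosome 17, from 83381664 to 84057490 on the minus strand, with 3 annotated starts. CARD9 (ENSMMUG00000003084) is 11.7 kb long on chromosome 15, from 1879684 to 1891414 on the plus strand, with 1 start. The counts cover whole genes and do not resolve exons or starts. In this annotation the end of FGF14 overlaps ITGBL1 on the opposite strand, and that of CARD9 overlaps DNLZ on the same strand. How UMIs in the stretch shared with DNLZ were counted was not checked.

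The 250 bases that precede the outermost annotated start of LDLRAD4 and of CARD9 are shown, 5′ to 3′ on the gene's own strand, because genes induced by interferon were called in the contrast that chose the genes. Sequences are from the RefSeq genome of Mmul_10. Capitals mark matches to the SMAD core CAGAC, read as GTCTG where it lies on the other strand, and to the NF-kB motif.

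LDLRAD4, chr18:73839993-73840242, plus strand: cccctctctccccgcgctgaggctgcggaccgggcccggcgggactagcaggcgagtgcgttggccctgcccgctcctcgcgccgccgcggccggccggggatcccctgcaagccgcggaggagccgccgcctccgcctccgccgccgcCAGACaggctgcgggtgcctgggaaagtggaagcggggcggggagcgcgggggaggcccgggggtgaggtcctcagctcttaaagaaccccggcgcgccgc
CARD9, chr15:1879434-1879683, plus strand: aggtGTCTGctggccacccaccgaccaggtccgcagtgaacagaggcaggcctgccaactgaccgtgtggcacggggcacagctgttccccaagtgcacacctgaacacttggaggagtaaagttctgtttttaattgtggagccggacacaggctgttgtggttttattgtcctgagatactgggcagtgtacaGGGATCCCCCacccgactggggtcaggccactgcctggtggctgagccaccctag

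The LDLRAD4 window was the richer in G and C, with 78.4% against a median of 57.2% over 20782 promoters, and held 34 CG pairs against a median of 12. The window of CARD9 had 58.8% G and C, with 6 CG pairs. Of 5 motifs searched on both strands, the interferon-response core GAAANNGAAA (present in 3.03% of all promoters), the STAT core TTCNNNGAA (5.98%) and the photoreceptor CRX core TAATCC (9.29%) had no match in either window. The SMAD core was matched once in LDLRAD4, 101 bases before the start, and once in CARD9, and 37.3% of all promoters held it. The NF-kB motif, in the 1 form searched, was matched in CARD9, 55 bases before the start on the other strand, and in 2.31% of all promoters; other forms of it were not searched, and the LDLRAD4 window holds the stretch ggggatcccc, which the form searched does not match. These matches are descriptions of letters and not of sites in use.

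In rod-like cells the level of LDLRAD4, in CPM (UMIs of the gene scaled to a common total of UMIs summed over a library's rod-like cells), was 4.04 in the right uninjected area of NHP2 and 3.78 in the left one, resting on 149 and 101 UMIs. The hRPGR blebs had 8.17 (right) and 9.97 (left) CPM, and the mScarlet blebs 20.3 (right) and 18.4 (left). The NHP1 libraries had 19.0 (right) and 7.29 (left). Thus the uninjected areas of NHP2 were lowest and the mScarlet blebs highest within that animal, without overlap, while the right NHP1 library lay between the 2 mScarlet blebs. The mean was 19.3 ± 1.32 CPM (SD, n = 2) in the mScarlet blebs and 3.91 ± 0.186 (n = 2) in the uninjected areas, 4.94 times as high, and the ratio was similar within each eye, 5.01 in the right and 4.87 in the left.

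FGF14 stood at 20.6 (right) and 23.5 (left) CPM in rod-like cells of the NHP2 uninjected areas, from 760 and 629 UMIs. It had 31.7 (right) and 22.2 (left) CPM in the hRPGR blebs and 72.6 (right) and 77.4 (left) in the mScarlet blebs. The highest levels of all were those of NHP1, 110 CPM in the right and 185 CPM in the left library. Both NHP1 libraries, which carry the label uninjected, were therefore above both mScarlet blebs, and the left hRPGR bleb was between the uninjected areas. How many of all genes have both NHP1 libraries above both mScarlet blebs was not counted. The mScarlet mean of 75.0 ± 3.38 CPM (SD, n = 2) was 3.40 times the uninjected mean of 22.1 ± 2.07 (n = 2).

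CARD9 had 8.92 (right) and 10.3 (left) CPM in rod-like cells of the NHP2 uninjected areas, from 329 and 275 UMIs. Levels were 16.2 (right) and 12.5 (left) CPM in the hRPGR blebs and 28.1 (right) and 31.0 (left) in the mScarlet blebs. NHP1 had 7.80 (right) and 11.4 (left) CPM, on either side of the NHP2 uninjected areas. CARD9 was thus the gene of the 3 for which all 4 uninjected libraries lay together and below every injected one. How many of all genes have this order was not counted, and the NHP2 uninjected and mScarlet levels were part of the choice. The mScarlet mean of 29.6 ± 2.03 CPM (SD, n = 2) was 3.08 times the uninjected mean of 9.61 ± 0.966 (n = 2).

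**Figure D1:**
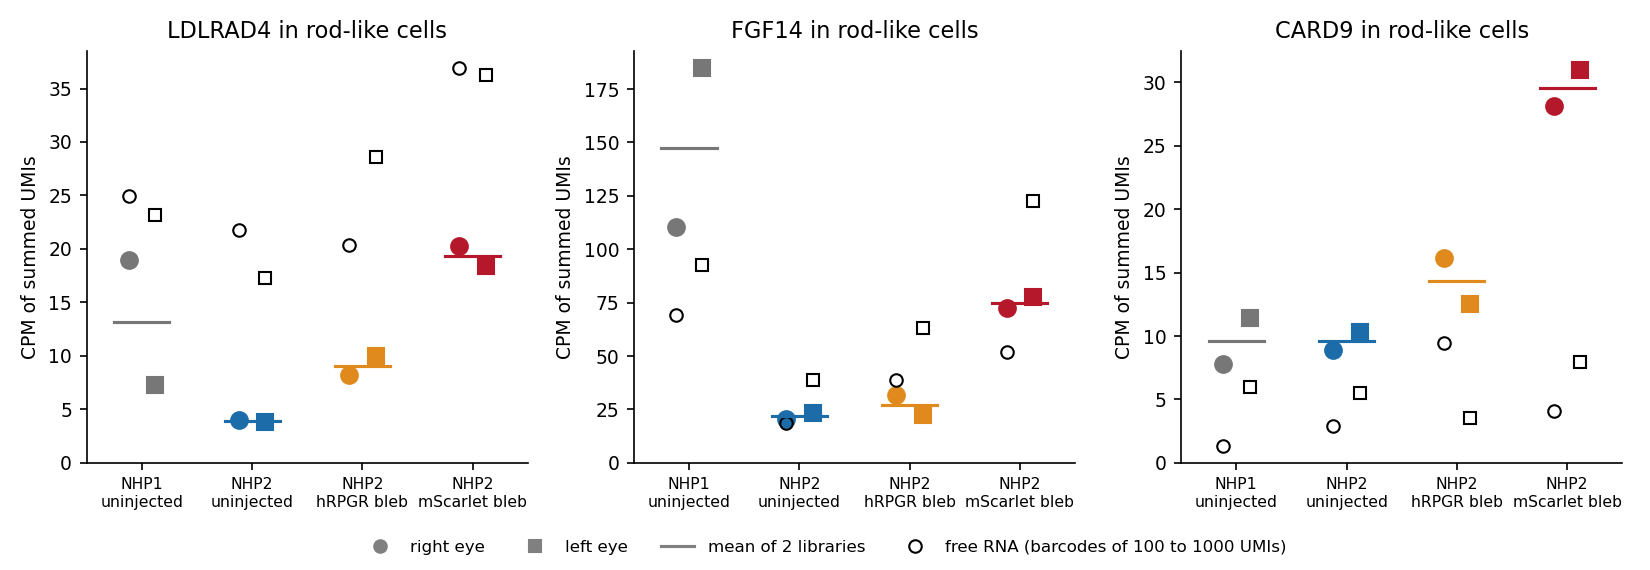
Level of LDLRAD4, FGF14 and CARD9 in rod-like cells (CPM of summed UMIs, linear axes from 0) for the 8 libraries by group; filled circles are right eyes, filled squares left eyes, lines the mean of 2 libraries and open symbols the free RNA of the same library. In NHP2 the mScarlet blebs are highest for each gene, at 18.4 to 20.3, 72.6 to 77.4 and 28.1 to 31.0 CPM, while the NHP1 libraries exceed them for FGF14, at 110 and 185 CPM.

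On the log2 scale of the fit over all 6 NHP2 libraries, the mScarlet blebs exceeded the uninjected areas by 2.22 (SE 0.17) for LDLRAD4, 1.69 (SE 0.14) for FGF14 and 1.55 (SE 0.13) for CARD9. In that fit 120 of 14488 genes (0.828%) were called as raised at an adjusted p of 0.05 by edgeR's quasi-likelihood test, and the 3 genes had been drawn from such calls. With eye as a block 4 genes were called in either direction in place of 146, and none of the 3 genes was among them (adjusted p 0.0641 for each). In mScarlet rod-like sums, 38.7% of 14817 genes lay above both uninjected areas without overlap, as all 3 genes did, so the order of the libraries by itself is common.

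The share of rod-like cells with at least 1 UMI gave the same order. At 3000 UMIs per cell, LDLRAD4 was found in 1.27% (exact 95% interval 0.988 to 1.60) of the rod-like cells of the right uninjected area and 0.942% (0.653 to 1.31) of the left one, against 5.23% (4.58 to 5.93) and 4.57% (4.00 to 5.18) in the mScarlet blebs. FGF14 was found in 4.395% and 5.79% of rod-like cells of the uninjected areas and in 13.7% and 14.96% of those of the mScarlet blebs. CARD9 was found in 3.02% and 3.05% against 8.57% and 9.57%. Intervals cover counting error only. Even in the mScarlet blebs most rod-like cells at this depth held no UMI of a given gene, and unthinned shares were 8.99%, 22.2% and 16.0% on average.

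Free RNA was measured in barcodes of 100 to 1000 UMIs and bears differently on the 3 genes. CARD9 was higher in rod-like cells than in free RNA in all 8 libraries, with free RNA at 1.36 to 9.45 CPM. LDLRAD4 was lower in rod-like cells than in free RNA in every library, and free RNA itself held 36.9 (right) and 36.3 (left) CPM in the mScarlet blebs against 21.8 (right) and 17.3 (left) in the uninjected areas. For FGF14, free RNA held 51.9 (right) and 122 (left) CPM in the mScarlet blebs against 18.6 and 39.0 in the uninjected areas, which is above the rod-like level in the left but not the right library of each pair.

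Cell types that could lack a gene gave a second measure of background. The thinned share with a CARD9 UMI was 0.284% to 0.832% in bipolar-like cells of the uninjected areas and the mScarlet blebs, well under the shares in rod-like cells of the same libraries, at median depths of 6536 to 7213 UMIs. The share with an FGF14 UMI in Müller-like cells, at median depths of 4316 to 8000 UMIs, was 1.09% and 0.543% in the uninjected areas and 2.57% and 2.34% in the mScarlet blebs. For LDLRAD4 bipolar-like cells could not serve in this way. They had shares of 4.26% and 4.99% in the uninjected areas and 4.23% and 5.81% in the mScarlet blebs. In the uninjected areas these shares were above those of rod-like cells, so they do not measure a background that both classes share. In the mScarlet blebs rod-like shares of 5.23% and 4.57% lay within the range of bipolar-like cells. Whether the LDLRAD4 level of rod-like cells differs from background is not decided by this measure.

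Markers of the cells in which each gene was highest were read in rod-like cells too, and their part in the differences was not tested. For LDLRAD4, the 10 cone markers summed to 209 (right) and 410 (left) CPM in rod-like cells of the uninjected areas and to 204 and 191 CPM in those of the mScarlet blebs. For FGF14, the 9 amacrine markers summed to 35.7 and 57.7 CPM in the uninjected areas and 42.2 and 46.8 CPM in the mScarlet blebs, with ranges that overlap. For CARD9, the 12 myeloid markers summed to 51.4 and 46.0 CPM in the uninjected areas and 53.5 and 65.6 in the mScarlet blebs, which do not overlap, with 1 of the 12 at 0 in the right mScarlet bleb, and the myeloid receptor CSF1R had 12 and 14 UMIs against 6 and 7. The complement gene C1QB moved the other way, from 9 and 14 UMIs to 86 and 135. Without rod-like cells that held a myeloid or T/NK marker UMI the log2 differences were 2.03 for LDLRAD4, 1.55 for FGF14 and 1.61 for CARD9. This left 3504 and 2445 of 6263 and 4358 rod-like cells in the uninjected areas. In the mScarlet blebs it left 2205 and 2447 of 4946 and 5791, and median depths were lower in all of these libraries.

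Whether the genes also differed in the hRPGR blebs was tested against the same uninjected libraries, which the 2 comparisons share. LDLRAD4 was 2.32 times as high in the hRPGR rods, 1.14 on the log2 scale (SE 0.17) with an adjusted p of 0.68 by edgeR's quasi-likelihood test. CARD9 was 1.49 times as high, at 0.50 (SE 0.13) and an adjusted p of 0.954, and FGF14 1.22 times, at 0.21 (SE 0.14) and an adjusted p of 0.954. No call was made for any gene, 0 of 14488 (0.0%), with 708 genes at an unadjusted p under 0.05 and 70 called by DESeq2. DESeq2 called LDLRAD4, with an adjusted p of 0.000666. LDLRAD4 and CARD9 lay above both uninjected areas in both hRPGR blebs, as did 26.5% of 14817 genes, and FGF14 did not.

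The left eyes had received adalimumab and the right eyes had not, so the eyes of NHP2 were compared with group as a term in the fit. Log2 differences of left against right were -0.00 (SE 0.15) for LDLRAD4, -0.10 (SE 0.12) for FGF14 and -0.03 (SE 0.12) for CARD9, each with an adjusted p of 1 after rounding by edgeR's quasi-likelihood test. Of all 14488 genes 0 were called (0.0%), 139 had an unadjusted p under 0.05, and DESeq2 called 11. As a ratio, the eyes differed most in the hRPGR blebs for each gene, where CARD9 and FGF14 were higher in the right eye and LDLRAD4 in the left.

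The uninjected libraries of the 2 animals were also compared. The NHP2 libraries of this test are those in which the genes were picked as low, so its values for the 3 genes are not independent of the choice. The level of FGF14 in NHP2 was lower by 2.75 on the log2 scale (SE 0.22, adjusted p 0.00129, edgeR's quasi-likelihood test), a mean of 22.1 against 147 ± 52.5 CPM (SD, n = 2), and FGF14 passed under every alternative tried. LDLRAD4 was lower in NHP2 by 1.80 (SE 0.44) with an adjusted p of 0.0829, and the NHP1 libraries were far apart for it. Without the left NHP1 library, the log2 difference of LDLRAD4 was -2.37 with an adjusted p of 0.00196, and without the right one -0.83. CARD9 did not pass, at -0.01 (SE 0.17) and an adjusted p of 0.981. In this contrast 530 of 14817 genes (3.58%) were called, or 331 with eye as a block, and animal, vector, age and handling cannot be told apart. The left NHP1 library, the one with 185 CPM of FGF14, held a huRPE65 UMI in 34.1% of its thinned rod-like cells, and the part of this in the difference was not tested. The right one, with 1 such cell of 5288, had 110 CPM, above all 6 NHP2 libraries. Of 14817 genes 2590 (17.5%) lay above both NHP2 uninjected areas in both NHP1 libraries, LDLRAD4 and FGF14 among them. How many lay above all 6 NHP2 libraries was not counted.

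Cells with and without a transgene were compared within each bleb after thinning. LDLRAD4 differed by 0.07 (SE 0.13, adjusted p 1 after rounding), FGF14 by 0.21 (SE 0.08, adjusted p 0.901) and CARD9 by -0.12 (SE 0.09, adjusted p 0.935) on the log2 scale, cells with a transgene UMI against cells without one, in edgeR's quasi-likelihood test with library as a block. In the right mScarlet bleb, FGF14 had 65.6 CPM in 2206 cells with an mScarlet UMI and 61.8 CPM in 2157 cells without one. In the left mScarlet bleb the corresponding levels were 74.4 and 65.2 CPM. In the left hRPGR bleb the gap was wider, with FGF14 at 25.5 CPM in 3238 cells with a coRPGR UMI and 15.5 CPM in 1767 cells without one. LDLRAD4 had 10.5 and 6.60 CPM in the same cells, and CARD9 12.9 and 13.4 CPM. The right hRPGR bleb had 134 cells without a UMI, which held 3 UMIs of LDLRAD4 and 8 each of FGF14 and CARD9. FGF14 was thus higher in cells with a transgene UMI in each of the 4 blebs, without passing the test. Cells without a UMI can still carry the vector, and cells with one can hold only free RNA. Free RNA had coRPGR at 2251 CPM in the left hRPGR bleb, against 1407 CPM in all its rod-like cells, and at 3482 against 3874 CPM in the right one. It had mScarlet at 56.9 and 58.4 CPM in the mScarlet blebs, against 311 and 235 CPM in rod-like cells. Of 11493 genes 6 were called (0.0522%).

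The presence of interferon-induced transcripts in the same cell was also recorded. In the right mScarlet bleb 3979 of 4363 thinned rod-like cells held a UMI of at least 1 of 10 such genes, among them PSMB8, PSMB9, BST2 and NLRC5. LDLRAD4 was found in 5.15% (exact 95% interval 4.49 to 5.89) of these and in 5.99% (3.83 to 8.85) of the 384 others, and CARD9 in 8.60% and 8.33%. In the left mScarlet bleb CARD9 was found in 9.34% (8.51 to 10.2) of cells with and 11.9% (9.07 to 15.3) of cells without such a UMI. The intervals overlapped for each gene in both mScarlet blebs, where few cells lacked such a UMI. They did not overlap for CARD9 in the left hRPGR bleb, with 5.02% (4.04 to 6.17) of 1712 cells with and 3.13% (2.56 to 3.78) of 3293 without. Nor did they for FGF14 in the left NHP1 library, with 37.5% (34.9 to 40.2) against 32.2% (30.2 to 34.3). For all other pairs of gene and library they overlapped. LDLRAD4 and FGF14 UMIs occurred together in 45 of 4363 (right) and 40 of 4993 (left) cells, 1.03% and 0.801%, where the product of their shares is 0.715% and 0.683%. The other pairs of members lay below the product of their shares in both mScarlet blebs. LDLRAD4 and CARD9 occurred together in 0.275% (right) and 0.320% (left) of cells, against products of 0.448% and 0.437%. For FGF14 and CARD9 it was 1.08% and 1.34%, against 1.17% and 1.43%.

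Across cell classes the 3 genes had distinct patterns, given here for the NHP2 uninjected areas and as counts within 1 gene. LDLRAD4 was highest in cone-like cells, with 440 (right) and 401 (left) CPM, without overlap with any other named class. Horizontal-like cells followed with 205 and 308 CPM, then myeloid-like cells with 218 and 144 and ganglion-like cells with 106 and 179, and each of these neighbours overlapped. Müller-like cells had 33.0 and 41.2 CPM and bipolar-like cells 17.5 and 17.8. Rod-like cells stood below all of these without overlap, and the few RPE-like cells, with 0 and 10.7 CPM, were the exception. Rods thus had about the lowest level of a gene that was highest in the other photoreceptor.

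FGF14 was a gene of inner retinal neurons in these libraries. Amacrine-like cells had 1161 (right) and 2011 (left) CPM, ganglion-like cells 866 and 1538 and horizontal-like cells 784 and 943, with overlap between neighbours. Bipolar-like cells had 194 and 272 CPM. Rod-like cells came next, above cone-like cells with 12.3 and 15.8 CPM and Müller-like cells with 3.47 and 4.62 CPM. In NHP1 the rod-like level of 110 (right) and 185 (left) CPM stayed below that of bipolar-like cells, 290 and 245 CPM. In the left library that order depended on leaving out the unnamed low-mitochondrial rod clusters, which are described below. Those clusters had 425 (right) and 626 (left) CPM of FGF14 in NHP1. With them counted as rod-like, the level was 166 CPM (right), below bipolar-like cells, and 371 CPM (left), above them.

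CARD9 was highest in myeloid-like cells, at 58.8 (right) and 56.2 (left) CPM, from 24 and 25 UMIs, and next in ganglion-like cells, at 20.8 and 31.0. RPE-like cells had 1 and 7 UMIs and are not ranked. Rod-like cells came after these with no overlap. Cone-like, bipolar-like and Müller-like cells had 0.352 to 2.20 CPM in the same libraries, so CARD9 was higher in rod-like than in cone-like cells, the reverse of LDLRAD4.

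**Figure D2:**
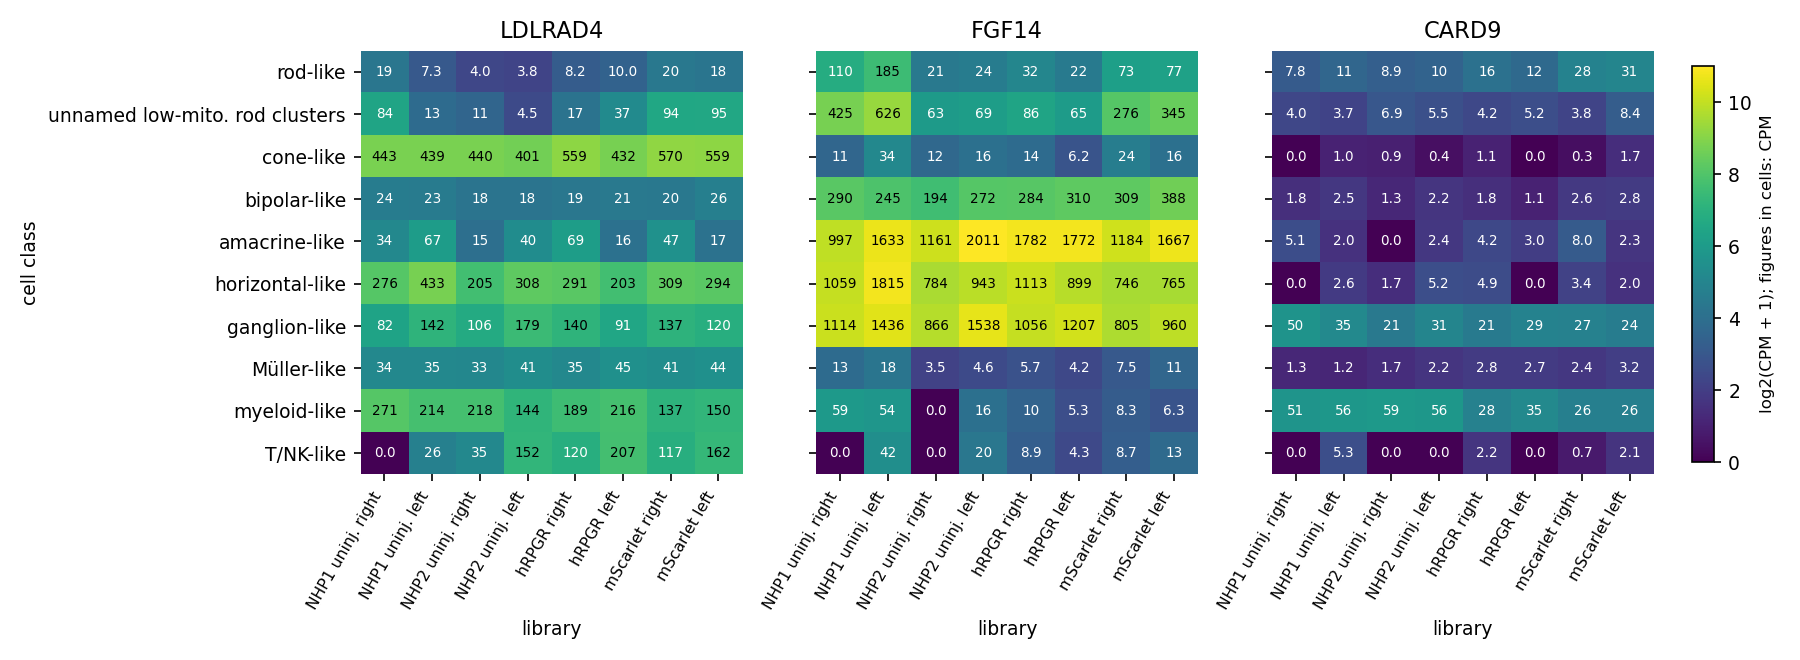
Level of each gene by cell class (rows) and library (columns), coloured by log2(CPM + 1) with the CPM printed in each cell. LDLRAD4 is highest in cone-like cells (401 to 570 CPM), FGF14 in amacrine-, horizontal- and ganglion-like cells (746 to 2011 CPM) and CARD9 in myeloid-like cells of the uninjected libraries (50.9 to 58.8 CPM).

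Blebs were compared with uninjected areas in 4 more classes with enough cells. In cone-like cells LDLRAD4 differed by 0.31 (SE 0.13, adjusted p 0.302) in the mScarlet blebs and by 0.21 (SE 0.13, adjusted p 0.838) in the hRPGR blebs, on the log2 scale of edgeR's quasi-likelihood test. The 2 mScarlet blebs had 570 and 559 CPM, above the uninjected 440 and 401. Of 11490 genes 149 (1.3%) were called in cone-like cells for mScarlet, or 60 with eye as a block, and LDLRAD4 was not among them.

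FGF14 differed most in Müller-like cells of the mScarlet blebs, by 1.09 (SE 0.33, adjusted p 0.197, edgeR's quasi-likelihood test), with 7.51 and 11.3 CPM against 3.47 and 4.62. These levels lie below those of free RNA in the same libraries. In bipolar-like cells the difference was 0.58 (SE 0.16, adjusted p 0.253), and without a filter on low counts FGF14 passed there with an adjusted p of 0.000503. In amacrine-like cells, where the gene is high, it was -0.15 (SE 0.35, adjusted p 1 after rounding). The share of genes called was 0.368% in Müller-like, 0.597% in bipolar-like and 0.036% in amacrine-like cells.

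CARD9 had too few UMIs to be tested in cone-like and amacrine-like cells. It differed by 0.59 (SE 0.45, adjusted p 0.675) in bipolar-like and 0.39 (SE 0.38, adjusted p 0.706) in Müller-like cells of the mScarlet blebs in edgeR's quasi-likelihood test. In the hRPGR blebs, where 0.0174% of genes were called in cone-like and 0.0157% in Müller-like cells, no member passed in any class, with adjusted p of 0.838 or more outside rod-like cells. In myeloid-like cells, which were not tested, CARD9 went the other way from rod-like cells. It had 26.2 and 25.8 CPM in the mScarlet blebs and 27.7 and 35.2 in the hRPGR blebs, below 58.8 and 56.2 in the uninjected areas, while myeloid-like cells numbered 35 and 45 in the uninjected areas and 206 and 228 in the mScarlet blebs.

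**Figure D3:**
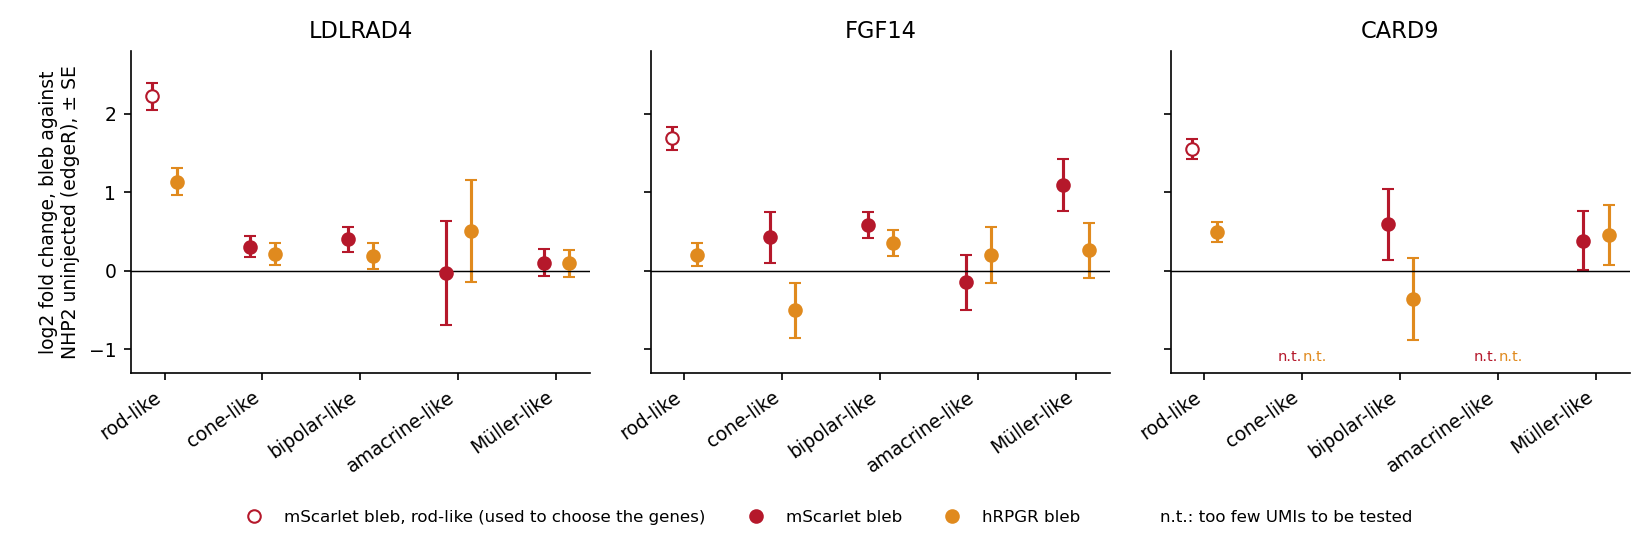
Log2 fold change of each gene in the mScarlet (red) and hRPGR (orange) blebs against the NHP2 uninjected areas in 5 cell classes, with SE; the open symbol is the contrast that chose the genes and n.t. marks classes with too few UMIs. Rod-like values for mScarlet, 1.55 to 2.22, were fixed as high by the choice of the genes. In the other classes shown, which the choice did not use, the highest value is 1.09 for FGF14 in Müller-like cells.

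Rod-like cells fell into clusters that differed between conditions, so levels were also read cluster by cluster. In the mScarlet blebs, the cluster with the smallest share of UMIs in genes of at least 100 kb among their 4 main ones (11.1% right and 11.5% left, the 3 genes left out) had 6.98 and 6.80 CPM of LDLRAD4 and 8.18 and 13.4 CPM of FGF14. The cluster with the largest share (28.0% in both) had 27.1 and 25.02 CPM of LDLRAD4 and 97.8 and 107 CPM of FGF14. The long genes LDLRAD4 and FGF14 thus varied with that share inside a bleb. CARD9, a short gene, had 28.9 and 36.5 CPM in the first of these clusters and 25.2 and 26.8 in the second.

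In the uninjected areas, 2 main clusters of rod-like cells at 10.4% to 11.1% and 25.9% to 26.0% gave LDLRAD4 levels of 2.57 to 4.14 and 3.86 to 5.02 CPM and FGF14 levels of 3.05 to 9.02 and 24.96 to 26.5 CPM. The mScarlet cluster nearest to the upper of these, at 26.8% (right) and 26.3% (left), had 25.2 and 23.9 CPM of LDLRAD4 and 94.9 and 92.8 CPM of FGF14. How many of all genes differ within such a pair was not counted, and the values repeat the contrast that chose the genes. The shares within a pair were close but not equal. Over all rod-like cells the long-gene share was 21.9% and 23.7% in the uninjected areas and 23.4% and 23.1% in the mScarlet blebs. The median log2 fold change of 2623 long genes was -0.04 in the mScarlet contrast against -0.00 over all 14488 genes, of which 82.5% had a length.

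In 3 rod-like clusters each of the 4 bleb libraries had at least 100 cells, which set the vectors side by side. FGF14 was higher in the mScarlet than in the hRPGR blebs in the first, with 58.9 (right) and 68.0 (left) against 29.2 and 29.4 CPM, and in the second, with 94.9 and 92.8 against 33.3 and 38.7 CPM. In the third, the cluster poorest in long genes, FGF14 overlapped, with 8.18 and 13.4 against 7.18 and 9.81 CPM. CARD9 had 23.9 to 36.5 CPM in the mScarlet and 13.4 to 22.2 CPM in the hRPGR blebs over the 3 clusters. LDLRAD4 overlapped in the first, with 14.8 and 14.1 against 8.61 and 16.8 CPM, and had 25.2 and 23.9 against 9.81 and 19.8 CPM in the second and 6.98 and 6.80 against 2.66 and 6.24 CPM in the third. Clusters were formed from all variable genes of these cells, so these values are descriptions, and the share of all genes ordered in this way within a cluster was not counted.

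A further set of clusters carried rod markers with very little mitochondrial RNA and was left without a name. These clusters were unequal in size between libraries. They held 403 (right) and 2577 (left) cells in the NHP2 uninjected areas, beside 6263 and 4358 rod-like cells. In the mScarlet blebs they held 504 and 362 beside 4946 and 5791. In the hRPGR blebs they held 1894 and 400 beside 5405 and 5915, and in NHP1 1241 and 3605 beside 6851 and 3673. Their cells had 46.6% to 55.6% of UMIs in genes of at least 100 kb, against 21.5% to 24.5% in rod-like cells. LDLRAD4 and FGF14 were higher there than in rod-like cells of the same library in all 8 libraries, with 93.7 (right) and 95.4 (left) CPM of LDLRAD4 and 276 and 345 CPM of FGF14 in the mScarlet blebs. The uninjected areas of NHP2 had 10.96 and 4.54 CPM of LDLRAD4 and 63.5 and 68.8 CPM of FGF14 in these cells. CARD9 was lower there than in rod-like cells in all 8 libraries, at 3.65 to 8.39 CPM, and the mScarlet blebs, at 3.76 and 8.39 CPM, enclosed the uninjected areas, at 6.92 and 5.49. CARD9 rested there on 11 (right) and 19 (left) UMIs in the mScarlet blebs, at about the level of free RNA, 4.13 and 7.98 CPM. A small difference from the uninjected areas could thus be missed. The mScarlet mean of CARD9 was 0.979 times the uninjected mean there, against 3.08 times in rod-like cells. The 2 sets of cells were not tested against each other. With these clusters counted as rod-like, FGF14 moved from 20.6 to 22.5 (right) and from 23.5 to 38.0 (left) CPM in the uninjected areas. In the mScarlet blebs it moved from 72.6 to 90.2 and from 77.4 to 93.6 CPM.

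**Figure D4:**
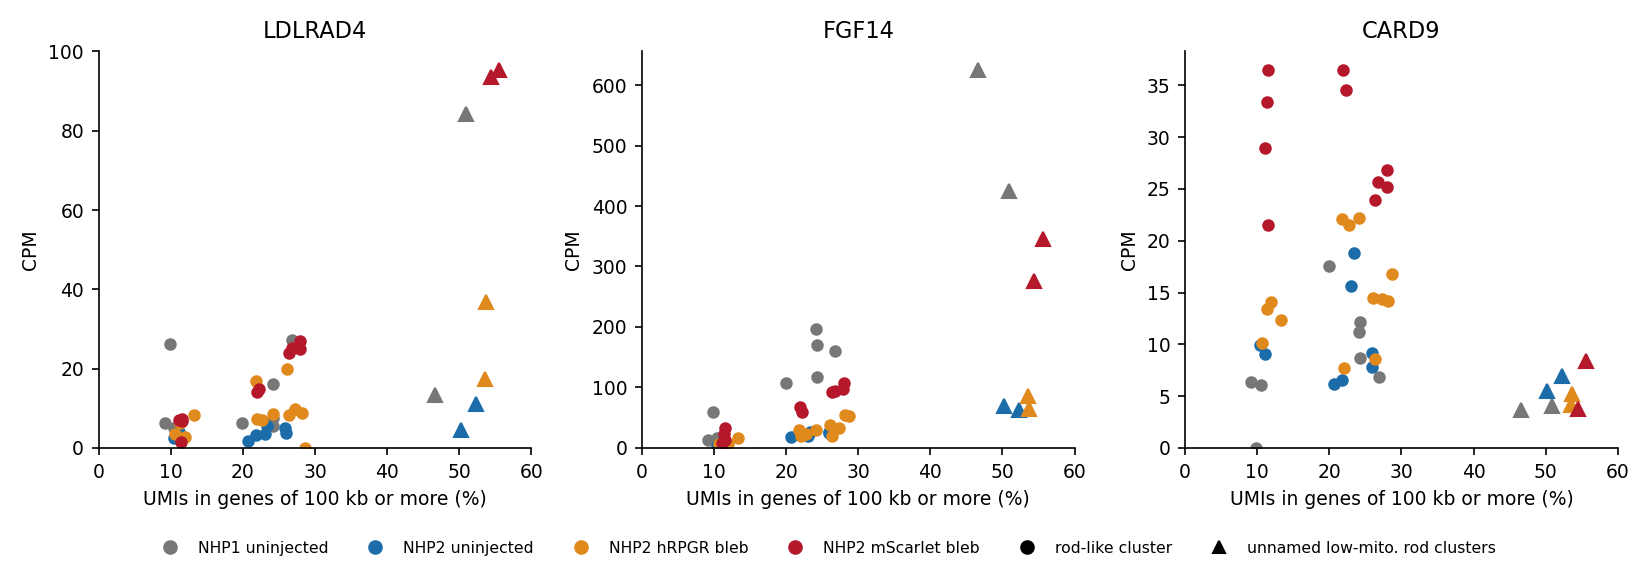
CPM of each gene against the share of UMIs in genes of 100 kb or more, for each rod-like cluster (circles) and for the unnamed low-mitochondrial rod clusters (triangles) in each library with at least 100 cells, coloured by group. LDLRAD4 and FGF14 reach 95.4 and 626 CPM in the low-mitochondrial clusters at shares of 46.6% to 55.6%, whereas CARD9 stays at 8.39 CPM or less there.

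The genes around each member were read from lists of partners and pathway genes. SMAD2, SCN8A, BCL10, MALT1 and SYK are named below for their roles, after their values were seen. Of 28 TGF-beta genes listed with LDLRAD4, among them SMAD2 and SMAD3, which carry the signal, the inhibitory SMAD7 and the ligases NEDD4, ITCH and SMURF2, 23 were tested in rod-like cells and 0 were called in the mScarlet contrast, where 1.01% of all genes were. The median log2 fold change of the list was -0.08 against -0.00 over all genes tested. SMAD2 had 91.7 and 94.7 CPM in rod-like cells of the uninjected areas and 93.6 and 94.6 in those of the mScarlet blebs. The 1 gene of this list called in any class was SMAD7, in bipolar-like cells of the mScarlet blebs, at 0.64 (SE 0.11, adjusted p 0.042, edgeR's quasi-likelihood test), and with eye as a block it was not called (adjusted p 0.0737).

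Of 17 genes listed with FGF14, 14 were tested in rod-like cells and 1 was called in the mScarlet contrast. This was SPTBN4, the beta-IV spectrin of the axon initial segment, which fell by 1.04 on the log2 scale (SE 0.11, adjusted p 0.0321, edgeR's quasi-likelihood test) and was not called with eye as a block (adjusted p 0.0817). Its levels were 62.7 and 65.3 CPM in the uninjected areas and 35.7 and 30.1 in the mScarlet blebs. The related factor FGF12 had 2.79 and 5.76 CPM in the uninjected areas against 70.7 and 87.5 in the mScarlet blebs. It had 57.7 and 13.6 in the hRPGR blebs, but was not called. The other 2 related factors listed overlapped between uninjected areas and mScarlet blebs. FGF13 had 70.0 and 140 CPM against 98.7 and 84.5, and FGF11 0.0814 and 1.98 against 0.225 and 0.256. The sodium channel SCN8A stayed at 27.9 to 34.4 CPM in all 8 libraries.

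Other calls in the FGF14 list were in cone-like cells and between animals. ANK3, the ankyrin that anchors sodium channels, fell by 0.85 in cone-like cells of the mScarlet blebs (SE 0.13, adjusted p 0.0216, edgeR's quasi-likelihood test) and was not called with eye as a block (adjusted p 0.0684). In rod-like cells SCN4B, a sodium channel beta subunit, was lower in NHP2 than in NHP1 uninjected libraries by 3.08 (SE 0.49, adjusted p 0.0193, edgeR), in the same direction as FGF14, while the median of the 15 list genes tested there was -0.34 against -0.01 over all genes.

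Of 31 genes listed with CARD9 30 were found, 21 were tested in rod-like cells and 0 were called in the mScarlet contrast. The median log2 fold change was 0.03. The partners of CARD9 were present, with BCL10 at 10.6 and 11.5 CPM in rod-like cells of the uninjected areas and 12.99 and 13.5 in the mScarlet blebs, and MALT1 at 37.9 and 42.4 against 35.8 and 34.4. The receptors and kinase upstream were hardly found in rod-like cells. CLEC7A, the beta-glucan receptor, had at most 0.479 CPM in any library, and SYK, the kinase that acts before CARD9 in myeloid cells, at most 0.376.

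Of 10 interferon-induced genes listed beside the members 5 were called as raised in mScarlet rod-like cells, where 0.828% of all genes were. The list was chosen with earlier results of these data known, and this contrast also chose the members. Its calls and median here therefore describe that choice and are not a test. NLRC5, an activator of MHC class I genes, differed by 5.49 on the log2 scale (SE 0.79, adjusted p 0.0432, edgeR's quasi-likelihood test), and the immunoproteasome subunit PSMB9 by 5.93 (SE 0.45, adjusted p 0.0264). BST2, IRF1 and PSMB8 were the others, at 6.95, 2.83 and 3.75. With eye as a block 2 of the 5 were called, BST2 and PSMB9 (adjusted p 0.034 for both), and NLRC5, IRF1 and PSMB8 were not (adjusted p 0.111, 0.117 and 0.0561). The median of the list was 3.36. In the hRPGR blebs the median was 1.72 with 0 called.

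Over the 8 rod-like sums, Pearson correlations of log2(CPM + 1) between the members were 0.57 for LDLRAD4 and FGF14, 0.56 for LDLRAD4 and CARD9 and 0.18 for FGF14 and CARD9, over libraries that share animals and eyes. Genes most like LDLRAD4 among 12586 were MCEE (r = 0.98), MLLT3 and FAM163A. Those most like FGF14 were NEIL1 (r = 0.99), LRRC14B and ZNF358, all higher in NHP1. Those most like CARD9 were KLHL26 (r = 0.99), the ferritin heavy chain FTH1 and UBA7, of which FTH1 had 635 and 661 CPM in the uninjected areas and 1250 and 1369 in the mScarlet blebs. Over the means of 10 classes in the NHP2 uninjected areas, the most alike were CDC14B, MAN1C1 and NEDD4L for LDLRAD4 (r = 0.90 to 0.82), KSR2, ACTL6B and DPP6 for FGF14 (r = 0.99 to 0.98), and ZNF613, BNC2 and ANKRD9 for CARD9 (r = 0.89 to 0.88).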

How the data were processed

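Raw UMI counts were read from the deposited matrices (features by barcodes). The authors ran Cell Ranger, version 8.0.1 in the file headers, with a custom Mmul_10 reference to which transgene sequences had been added. All barcodes are listed, and no counts had been corrected for free RNA or filtered. Barcodes counted as cells from 1500 UMIs and 300 genes upward, unless over 20% of UMIs were mitochondrial. The cells with the highest simulated-doublet scores were removed, at 0.8% per 1000 cells, which was 8604 of 91796 cells. Cells were clustered in scanpy 1.11.5 (3000 variable genes, 40 components, 15 neighbours, Leiden resolution 2), and 39 of 62 clusters were named from markers. The names are rebuilt, so they can differ from those of the study. Cell barcodes shared between libraries were about as many as chance gives.

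Counts were summed per library and class and tested in edgeR 4.0.16 (R 4.3.3) by the quasi-likelihood test with TMM scaling, the filterByExpr filter and Benjamini-Hochberg adjustment over all genes, with a threshold of 0.05. DESeq2 1.42.0 was an alternative. The other alternatives were other scaling, no filter, eye as a block, each library left out, the doublet share kept, other sets of rod-like cells and unthinned cells. Counting all unnamed clusters with rod markers as rod-like was an alternative chosen after seeing the data. Shares of cells with a UMI were computed after thinning each cell to 3000 UMIs, with exact 95% intervals that cover counting error only. The edgeR and DESeq2 fits were tested on counts simulated from the rod-like and bipolar-like sums, and the other steps were not tested in this way. These simulations gave every gene the same dispersion and no difference between eyes, so they do not show how the fits behave on these data.

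Right and left libraries of NHP2 groups come from the same 2 eyes, so eye pairs them within that animal. The left minus right differences over 14817 genes correlated at -0.35 (uninjected and hRPGR), 0.33 (uninjected and mScarlet) and -0.19 (hRPGR and mScarlet). Across animals the eye is only a shared label. With the differences of NHP1 the correlations were 0.58 (uninjected), -0.55 (hRPGR) and 0.28 (mScarlet), though no eye is shared. Such values therefore do not measure pairing by eye. The members and lists were chosen with earlier results of these data known. The genes named beside the members are the 3 most like each over rod-like sums and over class means, list genes called in a contrast, and up to 4 others per list in list order. SMAD2, SCN8A, BCL10, MALT1 and SYK fall outside this rule, and SMAD3, NEDD4, ITCH and SMURF2 are named only to describe a list. Gene lengths, positions and promoter windows are from the RefSeq annotation and genome of Mmul_10. The promoter window of FGF14 is not reported here.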

Additional observations from a re-analysis of the deposited data

Results flagged for a closer look

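The 8 classes with at least 30 cells in every NHP2 library were compared, for genes with at least 10 UMIs in each group. For FGF14 and CARD9, both libraries of a bleb lay above both uninjected libraries of NHP2 in some classes and below them in others. Ganglion-like cells were left out, with 21 cells in the left hRPGR bleb. These differences between classes were not tested, the rod-like mScarlet values were fixed by the choice of the genes, and the share of all genes with such a pattern was not counted. For FGF14 the mScarlet mean was 3.40 times the uninjected mean in rod-like cells, 4.70 times in the unnamed low-mitochondrial rod clusters, 2.32 times in Müller-like and 1.49 times in bipolar-like cells, but 0.875 times in horizontal-like cells. For CARD9 the mScarlet mean was 3.08 times the uninjected mean in rod-like cells, 1.51 times in bipolar-like and 1.43 times in Müller-like cells, but 0.453 times in myeloid-like cells. Means of CARD9 in bipolar-like and Müller-like cells, and of FGF14 in Müller-like cells, lay below free RNA. For CARD9 free RNA held 2.87 and 5.53 CPM in the uninjected areas and 4.13 and 7.98 in the mScarlet blebs. The ratios in these classes are therefore not told apart from background. In the hRPGR blebs CARD9 was 1.49 times the uninjected mean in rod-like and 1.40 times in Müller-like cells. It was 0.547 times in myeloid-like cells and 0.756 times in the low-mitochondrial rod clusters. In those clusters CARD9 lay within the range of free RNA of the hRPGR blebs, 9.45 (right) and 3.54 (left) CPM. No group has 4 libraries, so no library could be compared with the spread of its group.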

How the results depend on the processing

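Of 421 alternative values for 35 results on the 3 genes, 375 counted as unchanged. For the mScarlet contrast of rod-like cells this meant a move smaller than the SE of the main fit, whatever the call. Calls lost there on leaving out a library are thus among the 375. Elsewhere it meant the same direction and the same side of the threshold, which includes results called in neither setting. In the mScarlet contrast of rod-like cells, LDLRAD4 was 2.50 with the low-mitochondrial clusters added, 2.57 with all unnamed rod clusters and 2.03 without cells holding an immune marker UMI, and FGF14 was 1.85 in cells at or below the median mitochondrial share. FGF14 was 1.56 with the low-mitochondrial clusters and 1.64 with all unnamed rod clusters, and was no longer called in either. These values, and the calls in this contrast, describe the choice of the genes and support nothing about them. Leaving out each library gave 2.12 to 2.32 for LDLRAD4, 1.64 to 1.74 for FGF14 and 1.49 to 1.60 for CARD9.

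LDLRAD4 passed for hRPGR in rod-like cells in DESeq2 (1.13) and without a filter (1.14, adjusted p 0.0409 in edgeR), and between animals in DESeq2 (-1.80), without a filter (-1.81) and above the median mitochondrial share (-2.03), with -2.37 to -0.83 on leaving out a library. FGF14 passed in bipolar-like cells without a filter (0.57). Directions turned for LDLRAD4 in amacrine-like cells (0.21 in DESeq2). Between eyes they turned for LDLRAD4 (0.12 without immune-marker cells, 0.000326 at low mitochondrial share), FGF14 (0.039 at low mitochondrial share) and CARD9 (0.13 at low mitochondrial share, 0.00204 with all unnamed rod clusters). Between animals CARD9 gave 0.21 with the low-mitochondrial clusters, 0.17 with all unnamed rod clusters, 0.013 without immune-marker cells, 0.28 above the median mitochondrial share and 0.00569 with doublets kept. The causes were not tested.

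Leaving out 1 library turned the direction in these ranges. For mScarlet they were LDLRAD4 in Müller-like (-0.037 to 0.28) and amacrine-like cells (-0.91 to 0.96) and FGF14 in amacrine-like cells (-0.46 to 0.27). For hRPGR they were FGF14 in rod-like (-0.030 to 0.43) and amacrine-like cells (-0.14 to 0.62), CARD9 in bipolar-like cells (-0.68 to 0.030) and LDLRAD4 in Müller-like (-0.11 to 0.28) and amacrine-like cells (-0.84 to 1.51). Between eyes they were LDLRAD4 (-0.19 to 0.10), FGF14 (-0.20 to 0.069) and CARD9 (-0.11 to 0.10), between animals CARD9 (-0.19 to 0.20), and by transgene LDLRAD4 (-0.071 to 0.26).

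Unthinned shares, in the order NHP1, uninjected, hRPGR and mScarlet, were 5.51%, 1.85%, 3.87% and 8.99% for LDLRAD4, 38.0%, 8.28%, 8.94% and 22.2% for FGF14 and 5.53%, 5.39%, 7.22% and 16.0% for CARD9. Genes called ranged over the alternatives from 0 to 1339 (main 146) in rod-like, 21 to 1040 (149) in cone-like, 20 to 521 (77) in bipolar-like, 0 to 180 (4) in amacrine-like and 1 to 724 (47) in Müller-like cells for mScarlet. For hRPGR they ranged from 0 to 225 (0), 1 to 357 (2), 0 to 116 (0), 0 to 44 (0) and 1 to 34 (2) in the same classes. They ranged from 0 to 291 (0) between eyes, 138 to 934 (530) between animals and 1 to 58 (6) by transgene. In rod-like cells leaving out either hRPGR library gave 1137 or 1120 calls for mScarlet, and leaving out any mScarlet or uninjected library 0 to 4, with none of the 3 genes among them (adjusted p 0.0684 to 0.281). With eye as a replicate block 4 genes were called there, and LDLRAD4, FGF14 and CARD9 were not among them (adjusted p 0.0641 for each). The block changed no call on these 3 genes in the other contrasts.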
